A study of Mus musculus with 24 samples.

Results

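The 9 genes described here encode subunits of the AMPA and NMDA receptors, the ligand-gated channels that carry most fast excitatory transmission in the brain. Gria1, Gria2 and Gria4 encode AMPA receptor subunits. Grin1, Grin2a, Grin2b, Grin2c, Grin2d and Grin3a encode NMDA receptor subunits. They were chosen by name and not by their measured values, though earlier results of these data were known. They are 9 of the 52636 genes in the count tables. Each was read as the count of sense-strand read pairs in all 24 libraries, and all 9 passed the filter on low counts in every comparison.

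The libraries were made from the nucleus accumbens (NAc), a ventral striatal region that integrates reward and motivation. It was taken as bilateral tissue punches from mice 50 days of age, given as C57BL/6 in the labels and as C57BL/6J in the methods. In the MSUS groups, litters had gone through maternal separation with unpredictable maternal stress, in which pups were parted from the dam for 2 h (series text) or 3 h (methods) per day on postnatal days 1 to 14 while the dam was restrained or made to swim at an unforeseen moment. Con litters were left undisturbed. Each of the 4 groups, Con and MSUS of either sex, held 6 animals, and each animal gave 1 library. No group carried a transgene. The labels do not say which animals were littermates, so p-values measure the spread between animals, some of which may share a litter. The labels give stages of the estrous cycle to 6 males and leave 6 females without one, so no stage was used.

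AMPA receptors are assemblies of 4 subunits that open within a fraction of a millisecond of glutamate release. GluA2, the product of Gria2, makes the channel nearly impermeable to calcium, so receptors without it pass calcium, and such receptors in the NAc are known for their role in drug craving. NMDA receptors need glutamate, a co-agonist (glycine or D-serine) and depolarization together. Each contains the obligatory GluN1 subunit from Grin1 with GluN2 or GluN3 subunits. GluN2B, from Grin2b, prevails early in life, GluN2A, from Grin2a, is added as circuits mature, and GluN3A, from Grin3a, lowers calcium entry. Projection neurons of the striatum, the most numerous neurons there, carry both receptor types and receive glutamate from cortex, hippocampus, amygdala and thalamus.

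Sense-strand counts summed to 39923666 to 70575745 per library. Counts were divided by a size factor per library, and these values are called normalized counts here. All 10 listed markers of striatal projection neurons were detected in every library, and their summed normalized counts were 133024 to 351488. Detection does not show how much of a punch was striatal, and libraries differed. The lowest sum was 133024 in Con females (median 290480) and 160512 in MSUS males (median 256230). Con female 3 had 6747 normalized counts of the striatal marker Drd1 and 61673 of the cortical marker Slc17a7. MSUS male 6 had 8199 and 61383. Markers of cortical excitatory neurons were detected as well, and their summed normalized counts in females were 16415 to 88737 (Con) and 9368 to 41232 (MSUS). In males they were 11253 to 62889 (Con) and 12893 to 89825 (MSUS). The cortical marker score, the mean log2 CPM (counts scaled to library size) of the 10 cortical markers, ran from 1.27 in MSUS female 5 to 5.73 in MSUS male 6. The share of read pairs that fell in no gene was 31.0% to 34.8% in Con females and 36.3% to 43.9% in their MSUS counterparts, which did not overlap. The male groups overlapped, at 34.7% to 40.6% (Con) and 32.2% to 44.7% (MSUS). In bulk tissue, fewer cells of a type and less RNA per cell cannot be told apart, and this holds for every result that follows.

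To order the 9 subunits by level, normalized counts were divided by the length of each gene's merged exons and averaged over the 12 Con animals. Gria1 stood first at 5855 ± 402 normalized counts per kb (SD, n = 12). Grin2b was second at 3475 ± 250. Grin1 and Gria2 followed at 2623 ± 200 and 2588 ± 119. These 4 genes ranked 169, 399, 625 and 644 among 21896 protein-coding genes, so all were among the more abundant transcripts of the tissue. Grin2a had 973 ± 193 and Gria4 had 689 ± 48.6 normalized counts per kb. Grin2c, a GluN2 gene best known from cerebellum, had 498 ± 63.3. Grin3a had 234 ± 47.4. Grin2d, a GluN2 gene known from early brain and from interneurons, was last at 105 ± 29.1 and ranked 10521.

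**Figure D1:**
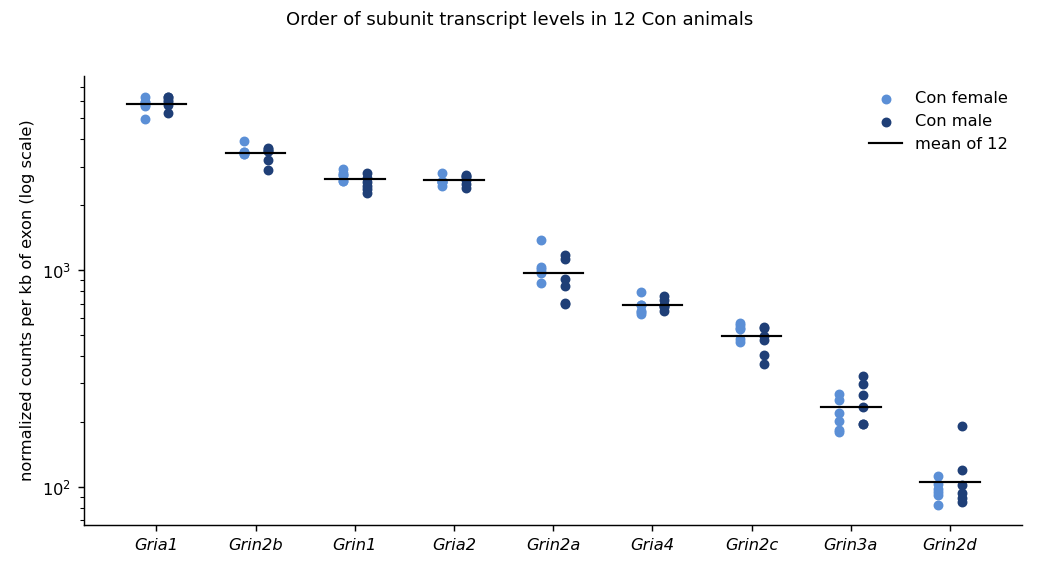
Normalized counts per kb of exon (log scale) for each subunit, ordered by the mean (black line) over 12 Con animals, with 1 point per animal in the colour of its sex. The levels fall from Gria1 at a mean of 5855 to Grin2d at 105, and the points of Grin1 and Gria2 lie over the same range.

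Of the 8 pairs of neighbours in this order, 7 differed in an exact two-sided sign-flip test over animals. Gria1 was above Grin2b in 12 of 12 animals by 0.75 ± 0.18 on the log2 scale (SD, exact p = 0.000488, the smallest that 12 animals allow, adjusted p = 0.000651). Grin2a was above Gria4 in 11 of 12 animals (exact p = 0.00146, adjusted p = 0.00167). Grin1 and Gria2 were not separated: Grin1 was higher in 8 of 12 animals by 0.017 ± 0.15 (exact p = 0.701). The upper places changed with the length used. With the longest transcript in place of all exons, Grin1 moved to the second place and Grin2b to the fourth, while Gria1 stayed first and the 5 lower places stayed as they were. All 8 pairs of neighbours then differed. Grin1 stood above Gria2, at 5950 against 3880 normalized counts per kb. With counts of both strands over merged exons, Gria2 stood above Grin1, and all 8 pairs differed again. The 2 were therefore alike only with merged exons as the length and sense-strand counts. By group means, Grin1 was the third and Gria2 the fourth in Con females, and the reverse held in the other 3 groups.

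Among the GluN2 genes, Grin2b took most of the signal. Of the summed levels per kb of Grin2a, Grin2b, Grin2c and Grin2d in the 12 Con animals, Grin2b made up 68.9% ± 2.29, Grin2a 19.1% ± 2.14, Grin2c 9.85% ± 0.693 and Grin2d 2.13% ± 0.807 (SD, n = 12). The Grin2b share stayed between 65.7% and 73.3% in the Con animals. Its mean after MSUS was 70.3% ± 1.89 for females and 69.2% ± 2.97 for males (SD, n = 6), within the range of the Con animals.

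MSUS and Con females were compared first, since the study asked how early-life stress alters transcription in each sex. Of the 9 subunits, 3 passed an adjusted p of 0.10 (edgeR's quasi-likelihood test with Benjamini-Hochberg adjustment over all 20571 genes tested). Gria2 was higher in MSUS females, and Grin1 and Grin2c were lower, by 8.10%, 8.10% and 12.5%. In the same comparison 25.1% of all genes tested passed, 13.1% higher and 11.9% lower in MSUS, so 3 of 9 is a share near this background. Leaving out 1 female moved the background from 15% (without MSUS female 3, 3102 genes in place of 5156) to 27.7% (without MSUS female 1), and without MSUS female 2 it was 3358 genes. The changes were small: the median size over all genes that passed was 0.27 on the log2 scale, against 0.11 to 0.19 for the 3 subunits. The median log2 fold change was 0.010 over the 9 subunits and -0.0027 over all genes tested. No subunit had groups without overlap, against 7.21% of all genes tested.

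The 250 bases before the transcription start of the 3 subunits that passed are shown because these members moved, in opposite directions, in the same animals. They are from RefSeq on GRCm38.p6, all on the minus strand, and lie at chr3:80802836-80803085 (Gria2), chr2:25319188-25319437 (Grin1) and chr11:115267244-115267493 (Grin2c). Capitals mark each GC box, spelled GGGCGG and searched on both strands, where overlapping matches were counted apart.
Gria2: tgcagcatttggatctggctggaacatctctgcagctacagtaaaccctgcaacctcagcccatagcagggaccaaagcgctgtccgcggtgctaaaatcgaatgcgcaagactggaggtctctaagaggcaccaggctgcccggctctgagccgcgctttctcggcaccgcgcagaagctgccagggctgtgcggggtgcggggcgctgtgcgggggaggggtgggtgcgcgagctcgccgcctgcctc
Grin1: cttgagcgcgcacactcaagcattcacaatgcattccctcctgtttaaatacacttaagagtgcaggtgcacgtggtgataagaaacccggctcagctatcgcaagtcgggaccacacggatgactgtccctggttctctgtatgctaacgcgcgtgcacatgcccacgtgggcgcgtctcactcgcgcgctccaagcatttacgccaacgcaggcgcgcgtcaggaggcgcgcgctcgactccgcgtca
Grin2c: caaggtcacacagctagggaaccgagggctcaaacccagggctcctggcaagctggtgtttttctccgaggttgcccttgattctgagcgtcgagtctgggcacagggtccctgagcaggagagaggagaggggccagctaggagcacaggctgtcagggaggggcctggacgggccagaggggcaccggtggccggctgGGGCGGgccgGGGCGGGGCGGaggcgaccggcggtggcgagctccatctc
The Grin2c window held 3 GC boxes and those of Gria2 and Grin1 held none, whereas 32.7% of 32851 promoter windows of the same length held at least 1. Motifs of Klf (GGGTGTGG, 3.20% of windows) and Yy1 (AANATGGC, 3.91% of windows) factors were in none of the 3. The GC content was 64.8% for Gria2, 58.8% for Grin1 and 68.8% for Grin2c, against a median of 52.4% over all windows. These matches describe the letters only. No entry for Gria1, Grin2a, Grin2b or Grin3a was used.

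Gria2 (chr3:80681450-80802835, minus strand, mm10) encodes the subunit that blocks calcium entry through AMPA receptors. It had 37932, 39680 and 43341 normalized counts (lowest, median, highest) in Con females and 41995, 42730 and 44830 in MSUS females. Each of the 6 MSUS animals exceeded the Con median, and 2 exceeded all Con females. The log2 fold change was 0.11 (SE 0.039, adjusted p = 0.0656).

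Gria1 and Gria4 did not pass. Gria1 (chr11:57011387-57330244, plus strand) encodes GluA1, the subunit that is delivered to synapses with activity. It had 29929, 35371 and 38018 normalized counts in Con females and 32705, 37457 and 39430 in MSUS females. Con female 3 and MSUS female 1 were the lowest of their groups, and 5 of 6 MSUS females were above the Con median. The log2 fold change of 0.09 did not pass (SE 0.058, adjusted p = 0.313). Gria4 (chr9:4417896-4796234, minus strand) encodes GluA4, which is prominent in fast-spiking interneurons. Its means were nearly alike at 4294 ± 377 in Con and 4315 ± 135 normalized counts in MSUS females (SD, n = 6), with a log2 fold change of 0.010 (SE 0.053, adjusted p = 0.911).

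Grin1 (chr2:25291181-25319187, minus strand) encodes GluN1, without which no NMDA receptor reaches the surface. It had 25035, 26663 and 28504 normalized counts in Con females and 22942, 24277 and 25853 in MSUS females. In all 6 MSUS animals the value was under the median of Con, and in 5 it was under every Con female, while MSUS female 4 lay within the Con range. The log2 fold change was -0.12 (SE 0.042, adjusted p = 0.0666). An annotated antisense gene, Grin1os, shares 1307 bases of exon with Grin1, and antisense pairs over Grin1 were 0.477% of its sense pairs.

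Grin2c (chr11:115249169-115267243, minus strand) showed the smallest adjusted p of the 9. It had 2344, 2717 and 2882 normalized counts in Con females and 2085, 2324 and 2437 in MSUS females. Again 6 of 6 MSUS animals were under the median of Con, and 4 were under every Con female. The log2 fold change was -0.19 (SE 0.054, adjusted p = 0.0317).

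The large GluN2 genes did not pass. Grin2a (chr16:9567898-9995560, minus strand) had 15541, 17762 and 24676 normalized counts in Con females and 13843, 15662 and 20554 in MSUS females. It was below the Con median in 5 of 6 MSUS females, but the spread was wide and Con female 3 lay far above the other 5 Con females. The log2 fold change was -0.20 (SE 0.12, adjusted p = 0.242). Grin2b (chr6:135713233-136173511, minus strand), the most abundant GluN2 transcript, differed by -0.028 on the log2 scale (SE 0.045, adjusted p = 0.695). Its means were 87995 ± 4874 in Con and 86073 ± 2882 normalized counts in MSUS females (SD, n = 6).

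The low-abundance subunits stood higher in MSUS females without passing. Grin3a (chr4:49661611-49845744, minus strand) had 2204, 2583 and 3296 normalized counts in Con females and 2844, 3082 and 3377 in MSUS females, and all 6 MSUS females were above the Con median. Its log2 fold change of 0.23 was the largest in size of the 9 (SE 0.094, adjusted p = 0.110), and it passed with DESeq2 (adjusted p = 0.0959). Grin2d (chr7:45831883-45878378, minus strand) had 551, 640 and 743 normalized counts in Con females and 640, 708 and 856 in MSUS females. Again all 6 MSUS females were above the Con median, and the log2 fold change of 0.18 did not pass (SE 0.081, adjusted p = 0.137). Grin2d overlaps 643 bases of exon of the opposite-strand gene Gm45441, and antisense pairs over it were 31.5% of its sense pairs. At an unadjusted p under 0.05 (edgeR), 5 of the 9 subunits were past the threshold, as were 6735 of the 20571 genes tested.

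**Figure D2:**
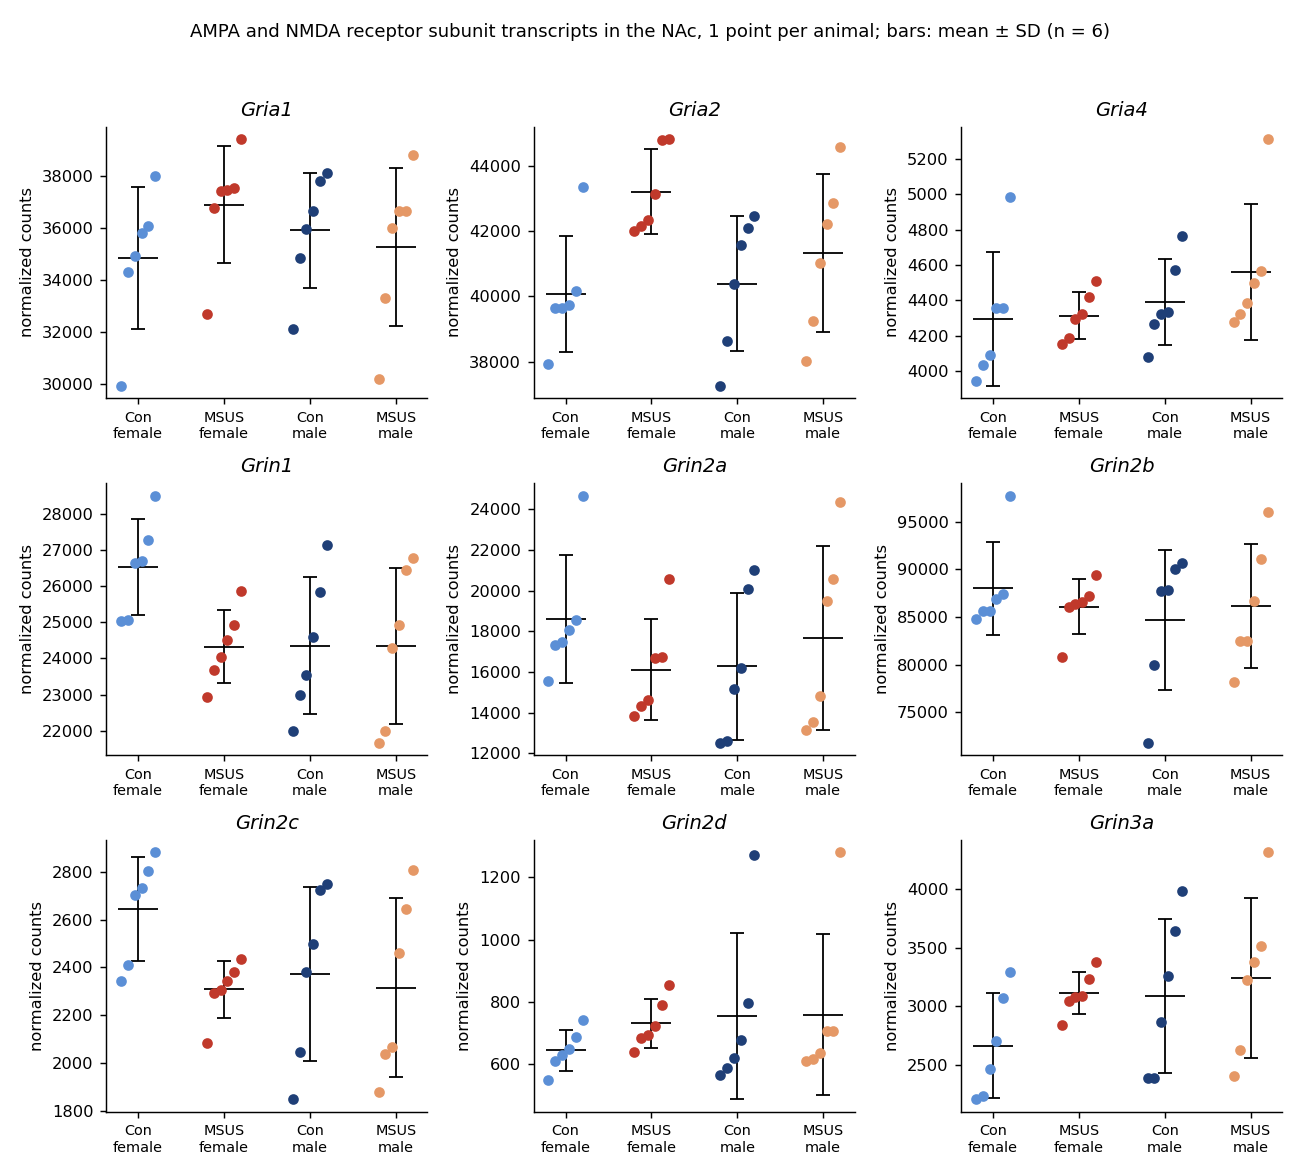
Normalized counts for each subunit, with 1 point per animal sorted by value within its group and the mean ± SD over 6 animals in black; the vertical axes do not start at 0. In Gria2 the MSUS females sit at 41995 to 44830 against 37932 to 43341 in Con females, in Grin1 and Grin2c they sit lower, and in every panel the 2 female groups overlap.

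Of the 3 calls, that of Grin2c stood with each of the 12 females left out in turn (adjusted p = 0.0195 to 0.0765). Gria2 lost its call without Con female 1, 2 or 5 or MSUS female 1, 3 or 5 (adjusted p = 0.103 to 0.136), and Grin1 without Con female 2 or MSUS female 2, 3 or 5 (adjusted p = 0.113 to 0.145). Grin3a passed without Con female 3 or 4 (adjusted p = 0.0283 and 0.0720), Grin2d without Con female 4 or MSUS female 1 (adjusted p = 0.0784 and 0.0782), and Grin2a without MSUS female 1 (adjusted p = 0.0788). These 6 subunits kept their direction in all 12.

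Library measures moved with these 3 calls. The share of pairs in no gene did not overlap between the female groups, and with it as a covariate 0 of the 20571 genes passed (1174 at an unadjusted p under 0.05, edgeR). The log2 fold changes of the 3 subunits were then 0.11 for Gria2, -0.09 for Grin1 and -0.30 for Grin2c, and their SEs grew to 0.083, 0.089 and 0.11. With the spliced share of reads as a covariate, 0 genes passed again (719 at an unadjusted p under 0.05, edgeR), and the log2 fold changes were 0.047 for Gria2, 0.0015 for Grin1 and -0.26 for Grin2c (SE 0.091, 0.094 and 0.13). With the cortical marker score as a covariate, 1631 genes passed but no subunit did. Gria2 and Grin1 then stood at 0.12 and -0.14 (adjusted p = 0.175 and 0.139), and Grin2c at -0.13 (adjusted p = 0.273). Within the 3 against 3 females of library numbers 1 to 12, the log2 fold changes were 0.13, -0.09 and -0.21 for Gria2, Grin1 and Grin2c, and within numbers 13 to 24 they were 0.10, -0.15 and -0.17, none of which passed. The 5 oligodendrocyte markers were all lower in MSUS females (log2 -0.30 to -0.23), at 127906 to 157312 summed normalized counts against 143917 to 214695 in Con females. Of the cortical markers 2 of 10 passed, both lower, with a median log2 fold change of -1.82 over the 10, and none of either list was at 0 in any library. Of 6 interneuron markers 2 passed, both lower, with log2 fold changes of -1.06 to 0.43 over the 6. Of 6 astrocyte markers 1 passed, also lower. None of the 10 striatal projection neuron markers passed, nor did any oligodendrocyte precursor, microglia or endothelial marker. The part of these measures in the 3 calls was not tested.

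In males, none of the 9 subunits passed, and neither did any of the 20691 genes tested (0% in the background, edgeR, with 191 genes at an unadjusted p under 0.05, and 0 genes with DESeq2). All 9 had an adjusted p of 1.00. Gria2 had 37252, 40975 and 42451 normalized counts in Con males and 38014, 41623 and 44590 in MSUS males, a log2 fold change of 0.03 (SE 0.055). Grin1 averaged 24354 ± 1901 in Con and 24349 ± 2156 normalized counts in MSUS males (SD, n = 6). Grin2c averaged 2374 ± 364 and 2316 ± 374. The groups of males overlapped in every subunit, and log2 fold changes ran from -0.04 for Grin2c to 0.12 for Grin2a.

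Grin2d and Grin3a set 2 males apart. Con male 6 had 1272 normalized counts of Grin2d against 568 to 797 in the other 5 Con males, and MSUS male 4 had 1280 against 610 to 708 in the other 5 MSUS males. The same 2 animals were the highest of their groups in Grin3a, at 3985 and 4318 normalized counts, and the lowest in Grin2b, at 71783 and 78122. Their cortical marker scores, 2.52 and 2.35 log2 CPM, were the lowest of their groups. Since 1 such animal lay in each group, they left the comparison balanced: the Grin2d log2 fold change was 0.01 with both, 0.22 without Con male 6 and -0.21 without MSUS male 4, none past the threshold.

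The group-by-sex interaction, which asks whether the MSUS effect differed between females and males, passed for none of the 9 subunits. None of the 21500 genes tested passed (0%, edgeR, with 4031 at an unadjusted p under 0.05), while DESeq2 called 390. The count turned on 1 library: without MSUS male 1, 3031 genes passed (14.0%), and within library numbers 13 to 24 it was 428, but no subunit passed in either. The differences in log2 fold change, females minus males, were 0.08 for Gria2 (SE 0.065, adjusted p = 0.513), -0.13 for Grin1 (SE 0.080, adjusted p = 0.378) and -0.16 for Grin2c (SE 0.14, adjusted p = 0.505). The 3 calls in females and none in males are therefore not shown to differ between the sexes.

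The sexes were compared within Con and within MSUS animals. In Con, 0 of 9 subunits passed against 2.64% of all genes, a share that moved from 0.0962% (20 genes in place of 544, without Con female 4) to 6.70% (1395 genes, without Con male 5) as single animals were left out, and to 12 genes with the replicate block. Grin1 came nearest, at 26534 ± 1333 in Con females and 24354 ± 1901 normalized counts in Con males (SD, n = 6), with all 6 females above the male median. Its log2 difference was 0.13 (SE 0.058, adjusted p = 0.259). In MSUS, 0 of 9 passed against 0.135% of all genes (28 genes, and 14 to 64 as single animals were left out, the ends set by MSUS female 2 and MSUS male 1), and log2 differences ran from -0.14 for Grin2a to 0.06 for Gria1. The MSUS female mean of Grin1, 24322 ± 1015, was close to both male means. These comparisons share animals with those of MSUS against Con, so their values are set side by side and not counted as separate support.

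**Figure D3:**
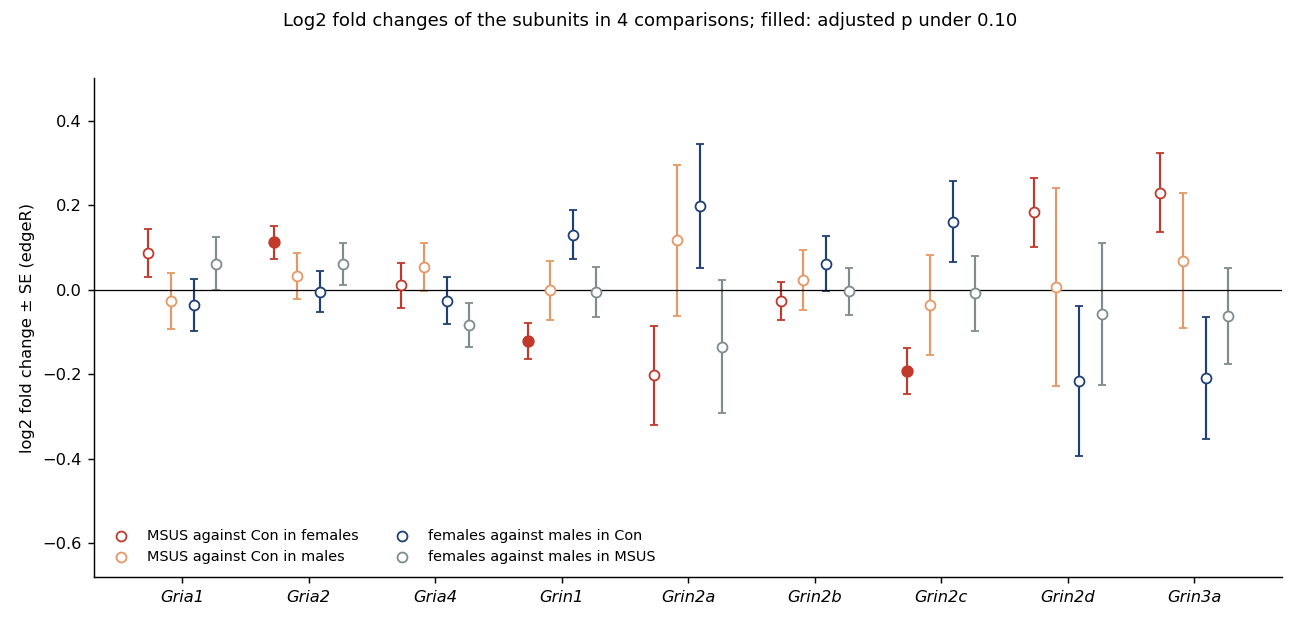
Log2 fold changes with their SE from edgeR for each subunit in 4 comparisons, where filled points have an adjusted p under 0.10. The 3 filled points, Gria2 at 0.11, Grin1 at -0.12 and Grin2c at -0.19, all belong to MSUS against Con in females.

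Ratios between subunits within a library do not depend on how libraries were scaled to each other. The ratio of 4 pairs, from levels per kb, was compared between MSUS and Con in each sex by an exact two-sided permutation test, 8 tests in all, whose smallest possible p was 0.00216. The ratio of Gria2 to Grin1 was 0.830, 0.934 and 1.08 (lowest, median, highest) in Con females and 1.02, 1.12 and 1.18 in MSUS females. Of the 6 MSUS animals, 6 exceeded the median of Con and 4 exceeded every Con female. The difference was 0.23 on the log2 scale, or 1.18-fold (exact p = 0.00649, adjusted p = 0.0519). Gria2 and Grin1 were each called above in the same animals, and Grin1 is also in the next ratio. Neither ratio is therefore counted as separate support. The ratio of Grin3a to Grin1 was 0.0611, 0.0792 and 0.104 in Con females and 0.0902, 0.103 and 0.111 in MSUS females. It was higher in MSUS by 0.37 on the log2 scale, or 1.29-fold, with 6 of 6 above the Con median (exact p = 0.0195, adjusted p = 0.0779). The call of Gria2 to Grin1 was lost without Con female 2 (exact test, adjusted p = 0.104), and that of Grin3a to Grin1 without any 1 of 9 of the 12 females (exact test, adjusted p = 0.104 to 0.173). With the replicate block neither passed (exact test, adjusted p = 0.25 and 0.375). With 6 pairs, however, 1 ratio alone cannot pass that test. Gria2 to Grin1 was higher in MSUS in every same-numbered pair, so 0.25 was the smallest adjusted p it could reach alone.

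Both female ratios kept their direction in each library set. The sets are parts of the same females in which the ratios were called, so this is not separate support. Among library numbers 1 to 12 the differences were 0.21 for Gria2 to Grin1 and 0.35 for Grin3a to Grin1, and among numbers 13 to 24 they were 0.26 and 0.38, where 3 against 3 cannot give an exact p below 0.10. In both sets all 3 MSUS females were above all 3 Con females for Gria2 to Grin1 (exact p = 0.10 each). With the share of pairs in no gene as a covariate, the differences were 0.20 (SE 0.13) and 0.33 (SE 0.28), and with the cortical marker score 0.26 (SE 0.081) and 0.41 (SE 0.17), given as values without a test.

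The other 2 ratios did not differ beyond the spread in females. Gria1 to Gria2, a ratio that bears on how many AMPA receptors could lack GluA2, was 2.23 in Con and 2.19 in MSUS females (log2 difference -0.03, exact p = 0.690). Its lowest values were those of Con female 3 and MSUS female 1. Grin2a to Grin2b, the ratio that rises as NMDA receptors mature, was 0.290 in Con and 0.257 in MSUS females (log2 difference -0.17, exact p = 0.126, adjusted p = 0.335). In males no ratio passed, with log2 differences from -0.06 to 0.08 and adjusted p = 0.723 for all 4 (exact permutation test). In the males Gria2 to Grin1 was 1.04 in Con and 1.06 in MSUS. Whether the ratio differences themselves differed between the sexes was not tested.

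**Figure D4:**
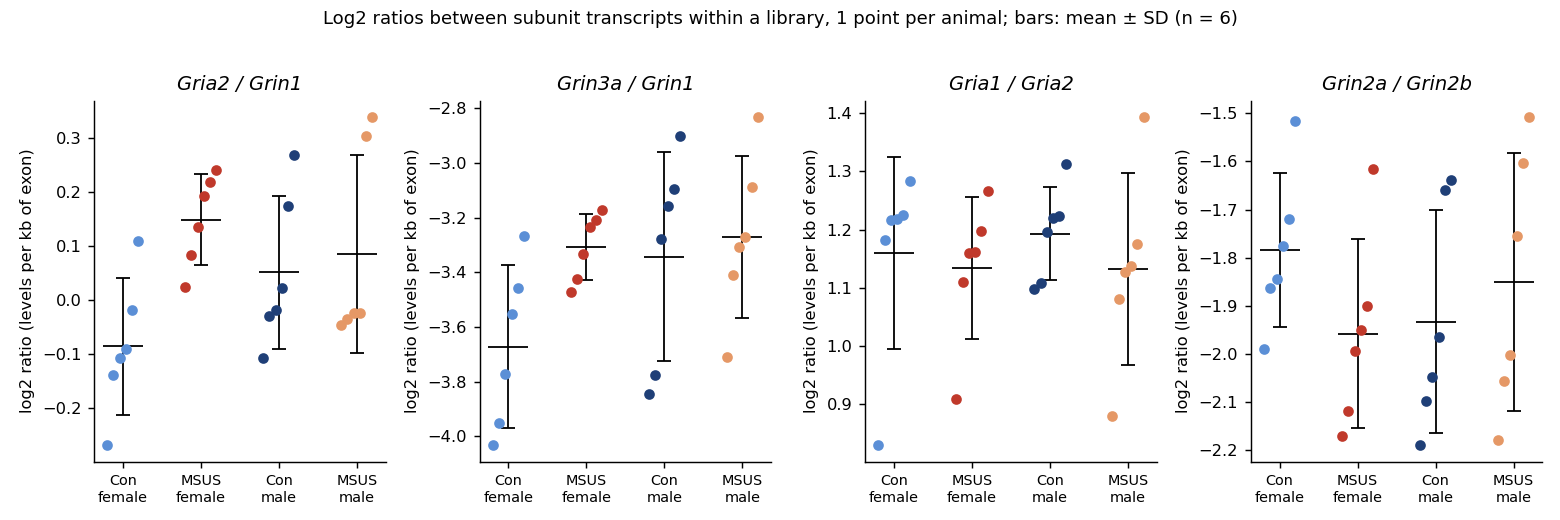
Log2 ratios between subunit levels per kb in each animal, sorted by value within its group, with the mean ± SD over 6 animals. In MSUS females the means of Gria2 to Grin1 and of Grin3a to Grin1 lie 0.23 and 0.37 above those of Con females, while the other 2 ratios overlap widely in both sexes.

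Several subunits varied with the cortical marker score over the 24 libraries, a relation looked at after the values were seen, as 1 of 18 relations (9 subunits with 2 library measures). Log2 CPM of Gria1 fell as the score rose (Pearson r = -0.78, Spearman rho = -0.82, permutation p = 1e-05 for both, the smallest these permutations can give, adjusted p = 0.00018). Without the 2 libraries farthest from the median score r was -0.79, and within the 4 groups it ran from -0.87 to -0.69. Grin2a rose with the score (r = 0.76, rho = 0.77, permutation p = 2e-05 for both, adjusted p = 0.00018), with r = 0.72 without the 2 farthest libraries and 0.58 to 0.88 within groups. Grin2c rose as well (r = 0.62, rho = 0.67, permutation p = 0.00114 and 0.00041, adjusted p = 0.00513), with r = 0.59 without the 2 farthest and 0.26 to 0.81 within groups. Grin2b rose with it over all libraries (r = 0.52, rho = 0.56, permutation p = 0.00811 and 0.0056, adjusted p = 0.0243, r = 0.54 without the 2 farthest), but within groups r ran from -0.31 in MSUS females to 0.97 in MSUS males. Grin2d fell as the score rose (r = -0.47, rho = -0.34, permutation p = 0.020 and 0.104, adjusted p = 0.0442 for r). Within groups its r ran from -0.79 in MSUS females to 0.06 in Con females. Gria2 showed no relation with the score (r = -0.19, rho = -0.21, permutation p = 0.368 and 0.328, r = -0.07 without the 2 farthest).

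Grin1 followed the share of pairs in no gene. Its log2 CPM fell as that share rose (r = -0.68, rho = -0.75, permutation p = 0.00036 and 0.0001, adjusted p = 0.00216). Without the 2 farthest libraries r was -0.66, and it was -0.43 once group means were taken off as well. Within the female groups r was 0.35 (Con) and -0.58 (MSUS), and within the male groups it was -0.44 (Con) and -0.87 (MSUS), so the relation did not hold in Con females. Gria2 rose with that share over all libraries (r = 0.56, rho = 0.57, permutation p = 0.00479 and 0.00411, adjusted p = 0.0172, r = 0.47 without the 2 farthest), but within each female group r was near 0 (-0.08 and -0.10). Within the male groups its r was 0.69 (Con) and 0.61 (MSUS). With group means taken off it was 0.40 (permutation p = 0.0505, adjusted p = 0.130). Grin2c and Grin2a fell as the share rose (r = -0.50 and -0.41, permutation p = 0.014 and 0.0484, adjusted p = 0.0354 and 0.0968). Within groups r ran from -0.63 to 0.42 for Grin2c and from -0.68 to 0.32 for Grin2a. With group means taken off, r was -0.33 for Grin2c and -0.30 for Grin2a (permutation, adjusted p = 0.190 and 0.239). Without the 2 farthest libraries as well, r was -0.05 and 0.03.

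**Figure D5:**
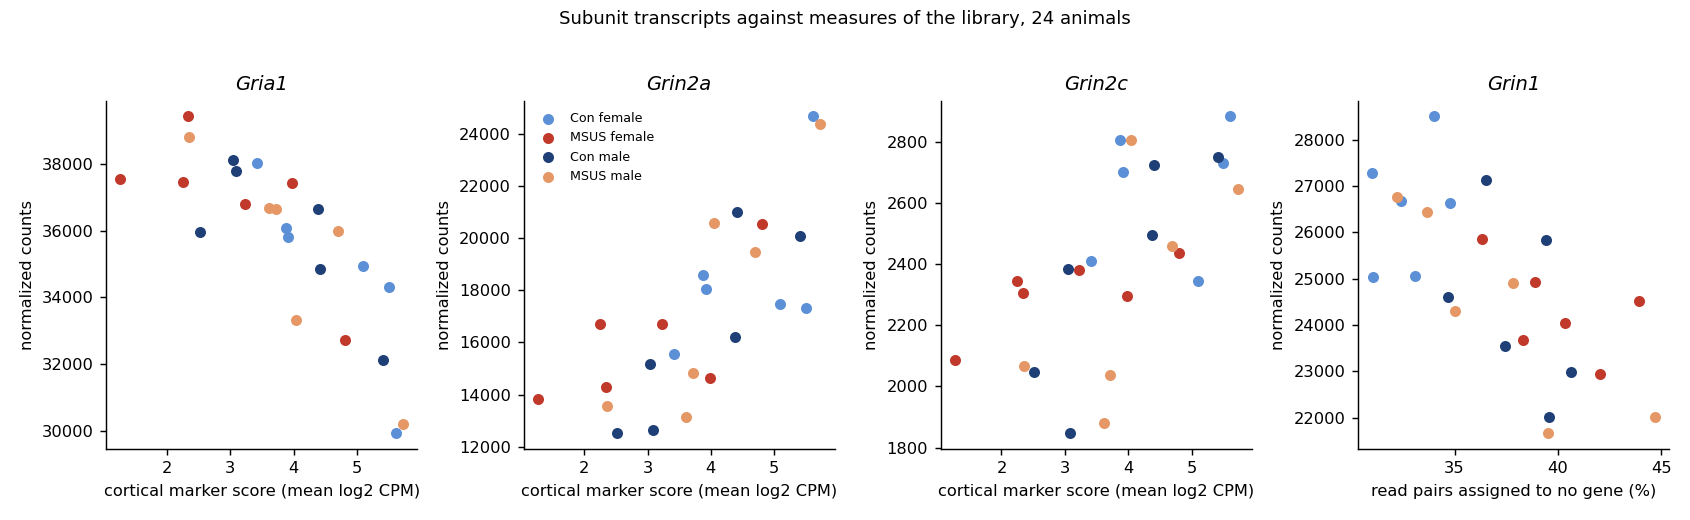
Normalized counts of Gria1, Grin2a and Grin2c against the cortical marker score (mean log2 CPM of 10 markers), and of Grin1 against the share of read pairs in no gene, with 1 point per library and the vertical axes not starting at 0. Gria1 falls with the score (r = -0.78 on log2 CPM), Grin2a and Grin2c rise with it (r = 0.76 and 0.62), and Grin1 falls with the share (r = -0.68).

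The subunits did not vary as 1 block. With group means taken off, log2 CPM over the 24 libraries was most alike for Grin2a and Grin2c (r = 0.87), then Grin2a and Grin2b (r = 0.78), Grin2d and Grin3a (r = 0.69) and Grin2b and Grin2c (r = 0.66). Those that ran most against each other were Gria1 and Grin2a (r = -0.82), Gria1 and Gria4 (r = -0.69), Grin2b and Grin2d (r = -0.62), Gria1 and Grin2c (r = -0.58) and Gria2 and Grin2d (r = -0.57). The genes with the pattern most like each subunit, among 14299 with a mean of at least 100 counts, were Erich3 and Zmym3 for Gria1 (r = 0.97 for both), Negr1 and Dbpht2 for Gria2 (r = 0.87 for both), and Trhde and Prrg3 for Gria4 (r = 0.90 and 0.88). They were Mlf2 and Myo18a for Grin1 (r = 0.94 and 0.91), Sort1 and Pgbd5 for Grin2a (r = 0.97 and 0.96), Ncoa6 and Tmem132b for Grin2b (r = 0.93 and 0.90), and Trio and Cntnap1 for Grin2c (r = 0.94 and 0.93). Psd2 and Lrrc75b were most like Grin2d (r = 0.93 and 0.92), and Trpc5 and Coprs most like Grin3a (r = 0.87 and 0.86). All points share their libraries, so these values describe likeness only.

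Other genes of the glutamate receptor system were read from 7 fixed lists of 40 genes, of which 39 were tested. In MSUS against Con females 1 was higher and 12 lower, 33.3% of those tested against 25.1% of all genes. With the cortical marker score as a covariate 1 of the 39 passed, Grik5, and with the share of pairs in no gene none did. None passed in males, in the interaction or between the sexes.

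AMPA receptor auxiliary proteins, which travel with the channel and set its gating and number at synapses, held 6 of the 13 genes that passed. Of their 13 genes 6 passed in females (46.2%, against 25.1% of all genes tested). All 6 were lower in MSUS (11.9% of all genes were), with a median log2 fold change of -0.19 over the 13. The lists were chosen with earlier results of these data known, so this share is not separate support. None of the 6 passed with the cortical marker score, the share of pairs in no gene or the spliced share as a covariate. Shisa6, which keeps AMPA receptors at the synapse, averaged 1122 ± 342 normalized counts in Con and 693 ± 179 in MSUS females (SD, n = 6; log2 -0.69, SE 0.22, adjusted p = 0.0543). Cacng7, a member of the TARP family, averaged 6046 ± 1309 and 4577 ± 477 (log2 -0.40, SE 0.12, adjusted p = 0.0436). Cacng5, of the same family, averaged 1181 ± 173 and 934 ± 131 (log2 -0.33, SE 0.10, adjusted p = 0.0452). Of the 3 pentraxins that cluster AMPA receptors, Nptx1 was lower, with 8552 ± 5378 and 3447 ± 2237 normalized counts (log2 -1.31, SE 0.50, adjusted p = 0.0959), a wide spread in both groups.

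The remaining 5 lists held 6 calls among 23 tested genes, 26.1% against 25.1% of all genes. Among 5 kainate receptor genes, Grik2 was higher (9134 ± 1455 against 11374 ± 781 normalized counts in Con and MSUS females, log2 0.32, adjusted p = 0.0380) and Grik5 lower (log2 -0.12, adjusted p = 0.0931). Among 9 scaffold, trafficking and kinase genes, Camk2a, the kinase that phosphorylates GluA1 and binds GluN2B, was lower (91288 ± 5197 against 79490 ± 4136, log2 -0.20, adjusted p = 0.0195), as was Nsf, which binds GluA2 and takes part in membrane fusion (log2 -0.27, adjusted p = 0.0604). Of the 5 genes for co-agonist supply, 4 were tested and 2 were lower. These were Srr, which makes D-serine (6053 ± 140 against 5502 ± 161 normalized counts, log2 -0.13, adjusted p = 0.0113), and Gldc, which breaks down glycine (log2 -0.31, adjusted p = 0.0415). None of the 3 adenosine deaminases, of which Adarb1 edits the Gria2 transcript, and neither of the 2 kainate receptor auxiliary genes passed.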

How the data were processed

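Bilateral NAc tissue of 24 mice was profiled by RNA-seq. According to the labels and methods, libraries were rRNA-depleted and aligned to mm10 with STAR 2.6.1b and GENCODE M15. The authors deposited STAR's raw count of uniquely mapped pairs per gene in 3 columns (unstranded and each strand), and the sense column, which held far more pairs than the antisense one, was used. Depth was 39923666 to 70575745 counts per library. In no pair of libraries of a group did counts agree within sampling noise (60 pairs). Gene symbols, positions and exon lengths were taken from GENCODE M21 (52489 of 52636 identifiers matched).

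Each comparison was fitted over all genes with edgeR 4.0.16 in R 4.3.3: filterByExpr with a minimum count of 10, TMM, robust quasi-likelihood F test, Benjamini-Hochberg adjustment and a threshold of 0.10. Normalized counts were counts divided by DESeq2 1.42.0 size factors over the 24 libraries, and log2 CPM had a prior count of 2. Ratios, neighbours in the order of levels and correlations were tested by permutation in Python 3.11.15 with scipy 1.17.1 and numpy 2.4.6. The fit was tested on simulated data with log2 changes of 0.5 and 1. It recovered 79% (females) and 62% (males) of changes of 0.5, and 97% and 96% of changes of 1. Smaller changes, such as those of the subunits, were not simulated, so their recovery is not known. Groups came from the labels. The 9 subunits were named in every comparison, with up to 3 genes that rose and 3 that fell per list and the 2 genes most like each subunit. The members and lists were chosen with earlier results of these data known. Alternatives were DESeq2, other scaling, filters and strand, a replicate block, covariates (library set, share of pairs in no gene, spliced share from the study's read statistics, cortical marker score), a threshold of 0.05, library subsets, all 24 animals in 1 fit, and each animal left out. The estrous stage was left out because labels for it conflict with sex. No column of per-sample values was left unmapped. A further gene list is not reported here.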

Additional observations from a re-analysis of the deposited data

Results flagged for a closer look

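Each value was set against the other 5 animals of its group, and the highest or lowest animal was marked where its gap to the nearest other was large against the range of the group. In 52 such groups 6 values stood apart, and chance marks about 1 in 20 groups. Con female 3 was the highest of its group in Grin2a (24676 normalized counts, others 15541 to 18576) and in Grin2b (97754, others 84773 to 87370), and the lowest in the ratio of Gria1 to Gria2 (1.78, others 2.27 to 2.43). Its cortical marker score of 5.61 log2 CPM was also the highest of the Con females. Grin2d was highest in Con male 6 (1272 normalized counts, others 568 to 797) and in MSUS male 4 (1280, others 610 to 708). Gria4 was highest in MSUS male 6 (5311 normalized counts, others 4277 to 4568), which had the highest cortical marker score of all libraries, 5.73.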

How the results depend on the processing

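The 3 subunits that passed in females became 1 (Grin2c) at an adjusted p under 0.05, where 3126 of the 20571 genes tested passed. They became 0 with the share of pairs in no gene, the spliced share (0 genes with either) or the cortical marker score (1631 genes) as a covariate. They also became 0 within library numbers 1 to 12 (23 genes), within numbers 13 to 24 (0 genes), and with all 24 animals in 1 fit (4087 of 21500 genes). The share of pairs in no gene separates the female groups, so that covariate and the group cannot be told apart well. With the spliced share the Grin1 log2 fold change was 0.0015 in place of -0.12. For the other alternatives the cause was not tested. Leaving out each animal gave 1 to 5 subunits. There was 1 without MSUS female 3, MSUS female 5 or Con female 2 (3102, 3753 and 4092 of all genes). There were 5 without Con female 4 (5084 genes). Gria2 lost its call on counts of both strands (adjusted p = 0.163) and with no filter (adjusted p = 0.108), and Grin3a gained one with DESeq2 (adjusted p = 0.0959). Over all genes, DESeq2 called 1485 in place of 544 between the sexes in Con and 159 in place of 28 in MSUS. No member passed in the other comparisons under any alternative.

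Replicate numbers did not pair the samples: same-numbered animals had correlations of -0.24 to 0.25 between the female groups and -0.37 to 0.26 between the male groups, and 0 of 6 and 1 of 6 were most like their own number. With the replicate block, 1 subunit passed in females (Grin2c) and 0 of the 2 ratios. For the ratios, 6 pairs are too few for 1 ratio alone to pass that exact test. Leaving out each animal gave 0 to 2 ratios past the threshold: 0 without Con female 2, and 1 without Con female 1, 5 or 6 or MSUS female 2, 3, 4 or 5. Without MSUS female 1, Grin3a to Grin1 lost its call and Grin2a to Grin2b gained one (log2 -0.24, exact test, adjusted p = 0.0693). Between 7 and 8 of 8 neighbours in the order of levels differed. Covariates for the ratios were added after the data were seen.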
